A study of Mus musculus with 9 samples.

Results

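The collagen gene family comprised 44 of the 55536 genes in the tables, and 44 of the 22028 that are annotated as protein-coding. Members were all protein-coding genes of GENCODE M21 with a symbol made of Col, a type number, a and a chain number. The names fixed membership, so no measured value decided which genes are members. The family, classes and lists were chosen with earlier results of these data known. Which members are given in detail depended partly on their values. By the kind of assembly their chains form, 11 members were classed as fibrillar, 8 as basement membrane collagens and 25 as other collagens.

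Collagens are extracellular proteins in which 3 chains wind into a triple helix, either 3 copies of 1 chain or a mixture of related chains. Fibrillar collagens such as types I and III line up into the cross-striated fibrils that give connective tissue its strength, with types V and XI as minor chains that start fibrils and limit their width. Type IV chains assemble into the sheet-like network of basement membranes, type VI forms beaded microfilaments, FACIT collagens (fibril-associated collagens with interrupted triple helices) attach to fibril surfaces, and transmembrane collagens stay anchored in the cell membrane. In the ovary a basement membrane separates the granulosa cells, the somatic cells around the oocyte, from the theca and stroma, where fibrillar collagen is laid down.

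Bulk RNA-seq was available for 9 whole mouse ovaries in 3 groups of 3. Wild-type ovaries carried FOXL2 WT/WT. The hyperplasia and granulosa cell tumour groups both carried FOXL2 WT/C134W, a heterozygous C134W change in the forkhead transcription factor that maintains granulosa cells, and differed in the lesion named in the label. Ages, strain and how the allele was introduced are stated in none of the sources used here. The series set out to find genes dysregulated in tumours relative to normal ovaries. Nothing in the labels states that samples within a group came from separate animals, and tumour library 3 and hyperplasia library 3 carry titles with a common stem, so each p-value measures only the spread between these samples.

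Collagens took 0.328%, 1.22% and 0.925% of all counts in wild-type libraries 1, 2 and 3, 0.704%, 1.32% and 0.829% in hyperplasia, and 0.917%, 0.441% and 0.906% in tumours. The lowest shares were those of wild-type library 1 and tumour library 2, which also stood apart from their own groups across all tested genes (r of 0.914 to 0.922 and 0.898 to 0.908 with group members). In these libraries 31 and 30 of the 39 tested collagens lay below the mean of the other 8 libraries, against 49.98% and 52.3% of all genes. Their median collagen deviations were −0.99 and −1.21 on the log2 scale. Across genes the deviation of wild-type library 1 ran with gene length (Spearman's rho −0.60, a description without a test), that of tumour library 2 less (−0.28), and rho lay between 0.07 and 0.39 in the other 7. Collagen transcripts are long, with a median of 5319 nucleotides against 2463 over all tested genes. The part of this length relation in the collagen values was not tested. Results without both libraries are given for the genes called, the medians and some other members. Many values of single members, and the chain ratios, are given with both libraries only and may rest on them. Hyperplasia library 3 was closer across all tested genes to tumour libraries 3 and 1 (r of 0.979 and 0.966) than to hyperplasia libraries 1 and 2 (0.962 and 0.959). Both comparisons with hyperplasia include it.

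The tissue of origin was checked with marker lists. Summed levels of 6 granulosa markers (among them Foxl2, Fshr and Amh) ran from 534 to 692 CPM (counts relative to the library total, scaled by TMM, a correction for composition) in wild type, 286 to 867 in hyperplasia and 717 to 1090 in tumours. The members did not move alike. Amh stood at 211 to 222 CPM in wild type and at 7.81, 0.0975 and 39.4 CPM in tumours, and Fshr had 0 counts in tumour library 2. For 6 smooth muscle markers the ranges were 1074 to 2304, 2440 to 5750 and 328 to 952 CPM, and for 6 fibroblast and stroma markers 330 to 783, 608 to 1141 and 481 to 1159 CPM. Of the fibroblast markers 4 of 6 had fitted values below 0 in tumours against wild type, and Pi16 fell, from 4.72, 3.77 and 1.44 CPM to 0, 0 and 0.168 CPM (adjusted p = 0.0437 in edgeR, Benjamini-Hochberg). Oocyte markers (4 genes) stood at 88.9 to 115, 2.78 to 53.0 and 1.43 to 4.88 CPM, luteal markers (4) at 696 to 5134, 610 to 2968 and 138 to 215 CPM, and macrophage markers (5) at 129 to 217, 154 to 206 and 70.1 to 89.8 CPM. Pericyte markers (3) stood at 154 to 181, 152 to 221 and 67.5 to 120 CPM, adipocyte markers (4) at 45.6 to 59.8, 13.6 to 30.7 and 11.4 to 17.2 CPM, and oviduct markers (3) at 2.01 to 87.1, 1.55 to 2.03 and 0.390 to 0.756 CPM. Endothelium markers (5) at 359 to 383, 278 to 427 and 218 to 470 CPM and theca markers (4) at 146 to 437, 110 to 442 and 309 to 411 CPM overlapped between all groups. Within the endothelium list, 4 of 5 had fitted values below 0 in tumours against wild type. Tek and Tie1 were lower in every tumour than in every wild type, while Pecam1, Cdh5 and Kdr overlapped. Surface epithelium markers (6) summed to 1702, 1.37 and 604 CPM in the 3 tumours, and no marker on these lists had 0 counts in all 9 libraries. In bulk samples, fewer cells of a type and less RNA per cell cannot be told apart, and the part of these cell types in the collagen values was not tested.

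Levels differed widely between members. On the TPM scale (the deposited values that allow for gene length), 7 members had a mean of at least 100 over the 9 libraries, 18 of at least 10, and 10 lay under 1. The most abundant were Col1a2 (458 TPM) and Col3a1 (451), which encode chains of the main fibrillar types I and III, then Col4a1 (306), Col6a1 (275), Col1a1 (208), Col6a2 (190), Col4a2 (178) and Col6a4 (77.6). The highest levels therefore came from all 3 classes. Summed over the family, TPM ran from 901 in wild-type library 1 and 1026 in tumour library 2 to 4133 in hyperplasia library 2.

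**Figure D1:**
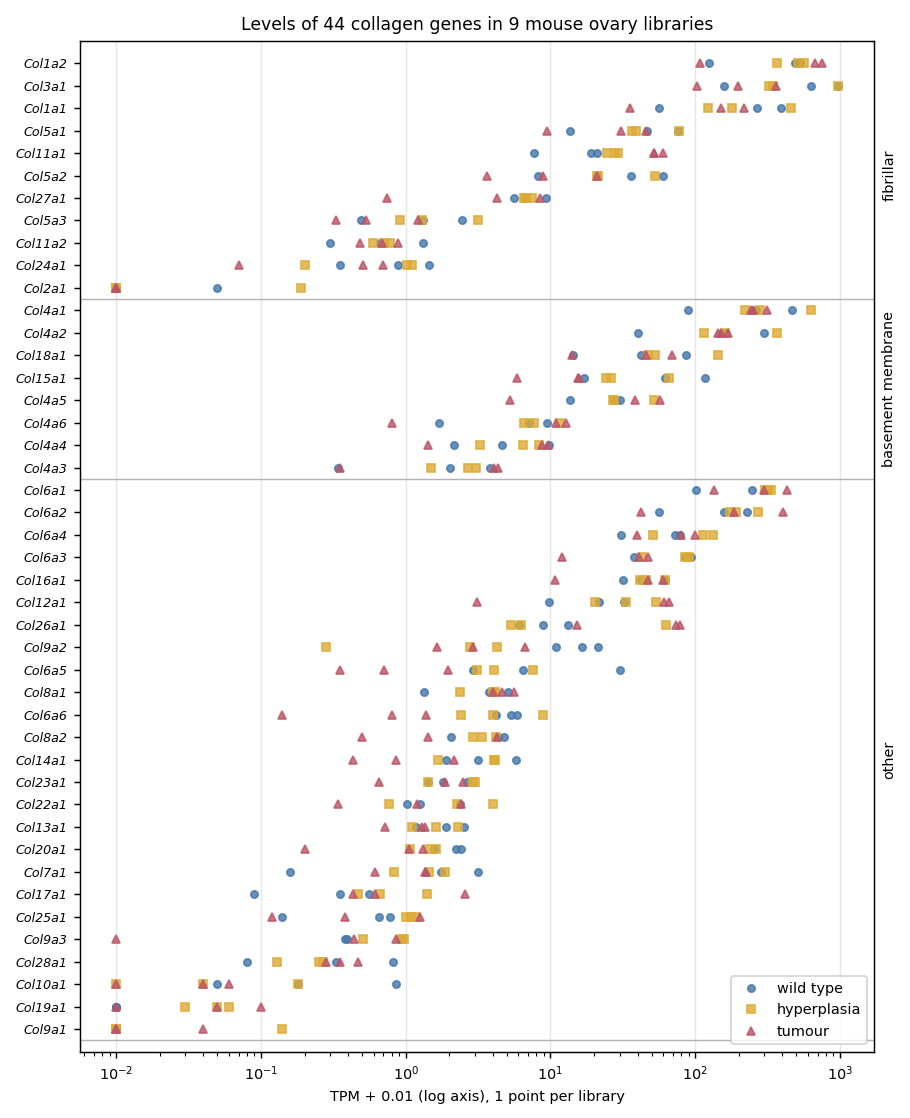
TPM of each of the 44 collagen genes on a log axis, 1 point per library, ordered by class and coloured by group (a value of 0.01 is added so that zeros can be drawn). Types I, III, IV and VI hold the highest levels, with Col1a2 at a mean of 458 TPM, and Col2a1, Col9a1 and Col19a1 lie near 0.

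Fibrillar members held 41.7%, 55.0% and 50.7% of the family's TPM in wild type, 40.6%, 51.0% and 44.5% in hyperplasia and 41.9%, 31.3% and 48.0% in tumours. Basement membrane members held 19.8%, 26.9% and 19.6%, then 24.3%, 30.2% and 18.7%, and then 17.5%, 42.5% and 22.4% in the same order. Tumour library 2 thus had the lowest fibrillar and the highest basement membrane share of all 9 libraries, while the other 2 tumours lay within the range of wild type for the fibrillar share.

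In tumours compared with wild-type ovaries, Col11a1, a minor fibrillar chain, rose 4.34-fold and Col6a5, a type VI chain, fell 29.9-fold (−4.90 on the log2 scale, and −3.67 without wild-type library 3), and these were the 2 of 39 tested collagens that passed the threshold. Over all 16213 tested genes the same test called 1.60% (0.352% higher, 1.25% lower) at an adjusted p under 0.05. The test was the quasi-likelihood test of edgeR (edgeR QL), and p-values were adjusted over all tested genes by Benjamini and Hochberg (BH). At an unadjusted p under 0.05 there were 8 collagens, where all genes gave 20.1%. Fitted values were above 0 for 20 members and below 0 for 19, against 50.9% above and 49.1% below over all genes, and the median log2 fold change was 0.03, against 0.01. The collagen median was −0.18 without both libraries that stood apart, and ran from −0.44 (without tumour library 3) to 0.12 (without wild-type library 2) with single libraries left out. In CPM the groups did not overlap for 7 tested members, 3 higher (Col11a1, Col17a1, Col26a1) and 4 lower (Col6a5, Col6a6, Col9a2, Col14a1) in tumours. Over all genes 24.1% did not overlap (10.6% higher, 13.4% lower).

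By class, the median log2 fold change in tumours was −0.51 for the 10 fibrillar members tested (3 above 0, 7 below), 0.28 for the 8 basement membrane members (7 above, 1 below) and −0.17 for the 21 other members (10 above, 11 below). The 6 type IV chains had a median of 0.42, with all 6 above 0. Of these, Col4a1 and Col4a2 stood at −0.44 and −0.48 without both libraries that stood apart. Without both libraries that stood apart the medians were −0.55 for fibrillar, 0.22 for basement membrane, −0.13 for other members and 0.52 for type IV. With 1 of the 6 libraries left out at a time they ran from −0.97 (without tumour library 3) to −0.16 (without tumour library 2) for fibrillar members, and from −0.06 (without wild-type library 1) to 0.67 (without wild-type library 2) for basement membrane members. For the other members they ran from −0.44 (without tumour library 3) to 0.10 (without tumour library 2), and for type IV from 0.09 (without wild-type library 1) to 0.88 (without tumour library 2). The difference between classes was not tested.

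**Figure D2:**
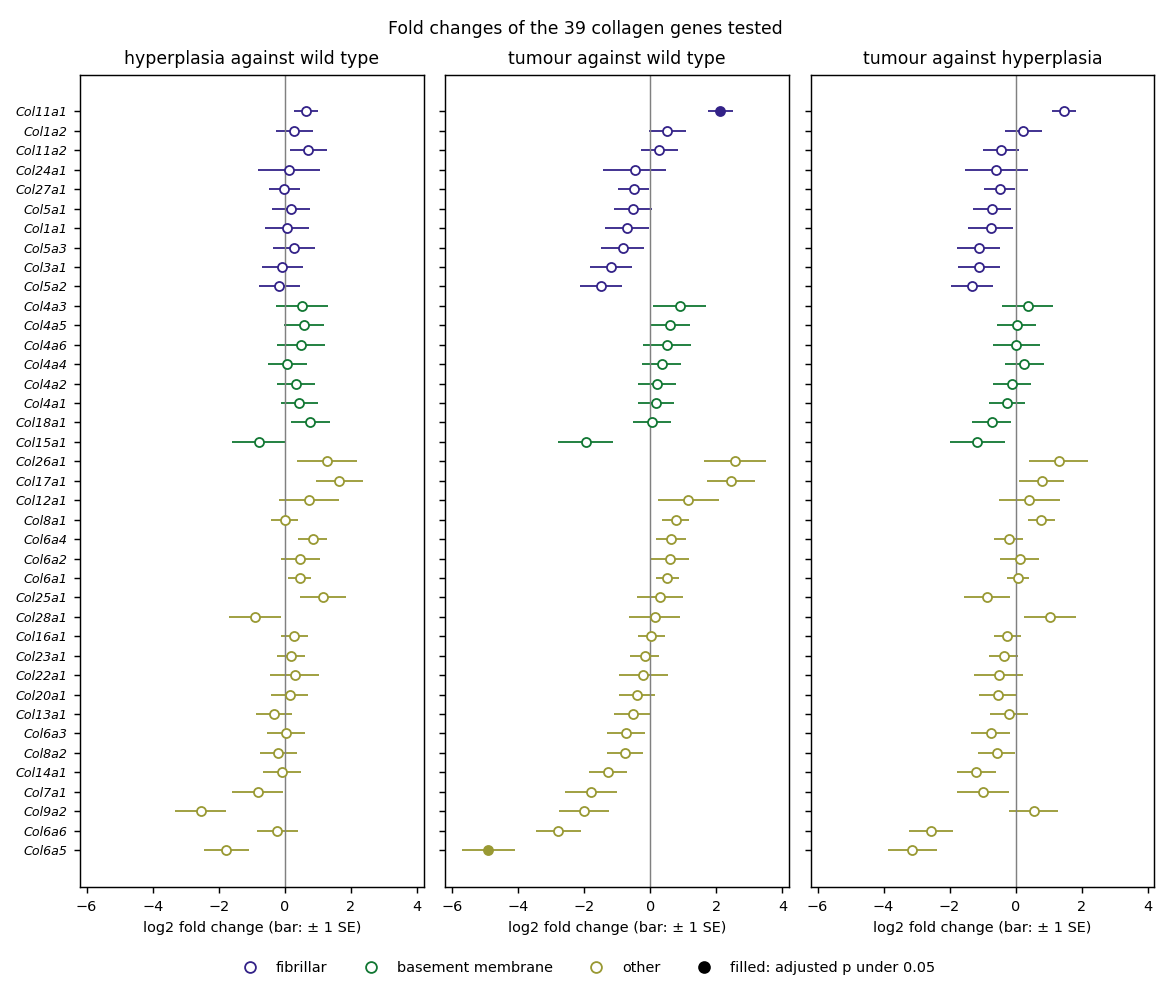
Log2 fold changes of the 39 tested collagens with bars of 1 SE in the 3 comparisons, coloured by class, with filled points where the adjusted p was under 0.05. Filled points occur only for tumour against wild type, at 2.12 for Col11a1 and −4.90 for Col6a5.

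Col11a1 (ENSMUSG00000027966, GRCm38 chromosome 3, 114030540 to 114220718, plus strand) encodes the alpha 1 chain of type XI collagen, which sits inside fibrils and helps start them. Its RefSeq promoter window (250 bases before to 50 after the transcript start, chr3:114030290-114030589, plus strand, GRCm38.p6) is shown because this gene was the collagen that rose. Capitals mark matches to the GC box GGGCGG and to the CCAAT box CCAAT, on either strand.
Col11a1: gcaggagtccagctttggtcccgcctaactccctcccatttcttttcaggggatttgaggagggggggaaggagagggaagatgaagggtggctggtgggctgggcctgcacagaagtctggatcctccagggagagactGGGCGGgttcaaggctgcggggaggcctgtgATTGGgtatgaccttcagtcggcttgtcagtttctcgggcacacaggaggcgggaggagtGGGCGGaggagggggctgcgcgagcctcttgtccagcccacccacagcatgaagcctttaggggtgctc

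Col11a1 stood at 34.7, 72.6 and 85.2 CPM in wild-type libraries 1, 2 and 3, at 108, 89.7 and 104 CPM in hyperplasia and at 228, 402 and 205 CPM in tumours. Every hyperplasia library lay above every wild-type library and every tumour above every hyperplasia library. The tumour-to-wild-type log2 fold change was 2.12 (SE 0.38, n = 3 per group, edgeR QL, BH adjusted p = 0.0404). Wild-type library 1 gave the lowest and tumour library 2 the highest value. Without both, the log2 fold change was 1.43 and no longer passed (edgeR QL, BH adjusted p = 0.0554), leaving out any single wild-type or tumour library also ended the call, and it passed in 6 of 15 alternatives, with values from 1.43 to 2.38 and adjusted p from 2.46e-05 to 0.123. Unlike most members, Col11a1 was thus high in tumour library 2, where 30 of 39 collagens lay below the mean of the other libraries. Chondrocytes, the cells of cartilage, are known for type XI collagen. Of their 4 markers, Sox9 stood at 18.7, 39.9 and 9.83 CPM in tumours and 4.67 to 7.597 CPM in wild type. Acan was at 0.993 CPM or less, Comp at 0.0840 CPM or less, and Matn1 at 0 in the 3 tumours. Summed, the 4 markers ran from 8.50 to 44.3 CPM in wild type, 12.4 to 18.4 in hyperplasia and 10.2 to 39.9 in tumours, with Sox9 higher and Acan and Comp lower in every tumour than in every wild type. The part of such cells in the Col11a1 result was not tested.

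The other fibrillar chains did not pass in any comparison. Col1a1, the alpha 1 chain of type I, stood at 293, 1298 and 890 CPM in wild type, 419, 1535 and 623 in hyperplasia and 561, 213 and 751 in tumours (tumour-to-wild-type log2 fold change −0.70, SE 0.67). Its partner Col1a2, which joins 2 Col1a1 chains in the type I helix, stood at 578, 1539 and 1453, then 1082, 1516 and 1769, and then 2489, 554 and 2073 CPM (0.52, SE 0.56). The groups overlapped for both genes. Col3a1, the only chain of type III, stood at 541, 2543 and 1512 CPM in wild type, 833, 2606 and 908 in hyperplasia and 587, 480 and 942 in tumours (−1.19, SE 0.63). Adjusted p-values for these 3 genes lay at 0.610, 0.656 and 0.329 (edgeR QL, BH). Col3a1 shares 141 exonic bases with Gm47302 on the same strand, so a small part of its reads could have been assigned to either gene.

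Type V chains sit within type I fibrils. Col5a2 stood at 48.6, 225 and 138 CPM in wild type, 81.0, 201 and 84.0 in hyperplasia and 37.8, 24.4 and 83.0 in tumours, a log2 difference of −1.503 (SE 0.64, edgeR QL, BH adjusted p = 0.230). Col5a1 had a log2 fold change of −0.53 and Col5a3 of −0.83. The remaining fibrillar members were lower in level, with mean TPM of 6.20 for Col27a1, 0.702 for Col11a2 and 0.687 for Col24a1, and their tumour-to-wild-type values ran from −0.50 to 0.28. Each of these 5 genes overlapped between tumours and wild type.

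Ratios between chains of the same or neighbouring fibrils compare genes within a library, so the total collagen content of the library cancels. The ratio of Col1a1 to Col1a2 TPM was 0.455, 0.738 and 0.544 in wild type, 0.336, 0.891 and 0.316 in hyperplasia and 0.198, 0.325 and 0.325 in tumours. All 3 tumours lay below all 3 wild-type ovaries, with hyperplasia spread over both. The ratio of Col3a1 to Col1a2 was 1.28, 1.84 and 1.28, then 0.936, 1.90 and 0.570, and then 0.263, 0.948 and 0.542, also lower in every tumour than in every wild type. Col5a1 over Col5a2 ran from 1.26 to 1.66 in wild type and from 2.18 to 3.45 in tumours. Col11a1 over Col5a1 stood at 0.559, 0.253 and 0.452 in wild type and at 1.70, 6.36 and 1.15 in tumours. Of 11 chain pairs computed, chosen after values were known, the groups did not overlap for 6 in TPM and for 5 in CPM, and these ratios are descriptions without a test. Several ratios share a chain. No share over ratios of other genes was computed, so these counts have no background beside them.

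**Figure D3:**
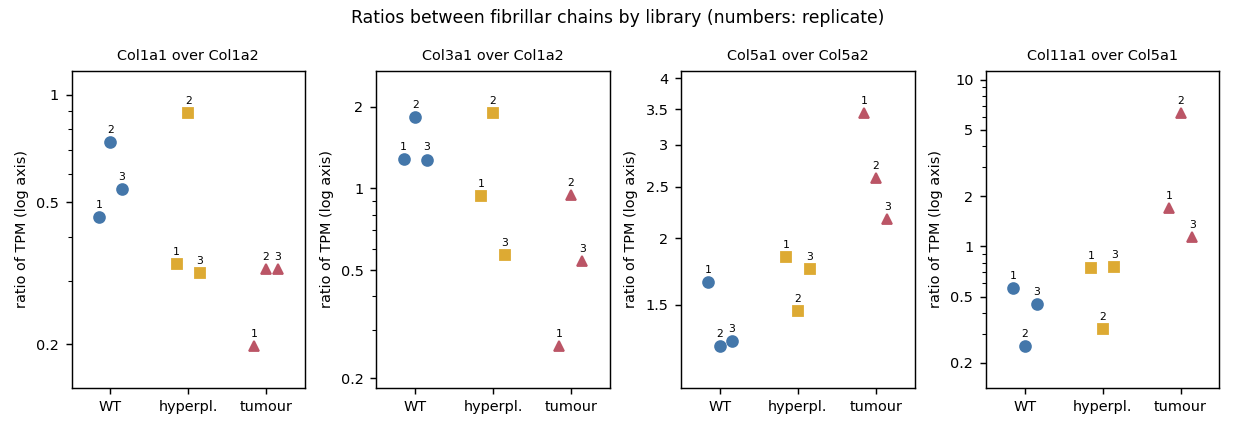
Ratios of TPM between 4 pairs of fibrillar chains in each library on log axes, with the replicate number beside each point. Tumours and wild-type ovaries do not overlap in any of the 4 panels, with Col1a1 over Col1a2 at 0.198 to 0.325 in tumours and 0.455 to 0.738 in wild type. The panels show 4 of 11 chain pairs that were chosen after values were known, and some panels share a chain.

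Among basement membrane collagens, the 6 type IV genes lie in 3 pairs that are transcribed away from each other. Col4a1 and Col4a2, which make the network found in nearly all basement membranes, are on chromosome 8, where their annotated ends overlap by 22 bases. Col4a4 and Col4a3 are 71 bases apart on chromosome 1, and Col4a6 and Col4a5 1308 bases apart on chromosome X. The promoter windows of Col4a1 (chr8:11312777-11313076, minus strand) and Col4a2 (chr8:11312555-11312854, plus strand, both GRCm38.p6) share 78 bases read in opposite directions, and are shown because the ratio of this pair varied least among the 11 chain pairs described here. Capitals mark GC box and CCAAT box matches as above.
Col4a1: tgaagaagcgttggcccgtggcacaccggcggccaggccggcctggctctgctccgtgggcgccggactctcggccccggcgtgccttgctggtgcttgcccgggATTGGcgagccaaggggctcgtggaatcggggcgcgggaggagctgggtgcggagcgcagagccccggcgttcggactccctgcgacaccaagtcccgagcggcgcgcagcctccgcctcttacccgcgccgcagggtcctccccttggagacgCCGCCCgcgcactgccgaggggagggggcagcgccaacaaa
Col4a2: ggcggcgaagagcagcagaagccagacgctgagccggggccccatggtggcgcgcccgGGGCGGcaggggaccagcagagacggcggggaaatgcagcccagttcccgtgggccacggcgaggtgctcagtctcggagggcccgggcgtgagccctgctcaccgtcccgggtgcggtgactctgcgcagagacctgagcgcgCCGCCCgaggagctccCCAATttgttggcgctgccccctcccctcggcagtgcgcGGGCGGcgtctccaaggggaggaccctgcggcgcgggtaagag

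Col4a1 stood at 417, 1681 and 895 CPM in wild type, 968, 2269 and 813 in hyperplasia and 803, 1450 and 1130 in tumours. Col4a2 stood at 231, 1056 and 578, then 577, 1334 and 447, and then 562, 969 and 631 CPM. Both genes were lowest in wild-type library 1 and highest in hyperplasia library 2, and their groups overlapped. The tumour-to-wild-type log2 fold changes were 0.18 (SE 0.56) and 0.21 (SE 0.58), with edgeR QL, BH adjusted p of 0.897 and 0.877. Without both libraries that stood apart these values turned to −0.44 and −0.48. They were −0.19 and −0.18 without wild-type library 1 alone, and −0.04 and −0.06 without tumour library 2 alone. Although the level of each gene varied several-fold, the ratio of Col4a1 to Col4a2 TPM stayed between 1.57 and 2.19 in all 9 libraries, so that the highest ratio was 1.39 times the lowest.

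Col4a3 and Col4a4 encode chains of the alpha 3-4-5 network known from kidney and some other specialised membranes. Col4a3 stood at 2.54, 7.48 and 14.6 CPM in wild type, 12.2, 7.46 and 15.7 in hyperplasia and 20.3, 2.54 and 22.5 in tumours (0.89, SE 0.79). Col4a4 stood at 19.0, 27.0 and 57.1, then 37.5, 19.1 and 52.3, and then 62.1, 14.7 and 53.8 CPM (0.34, SE 0.59). Tumour library 2 was far below the other 2 tumours for both genes. Col4a3 shares 563 exonic bases with C430014B12Rik on the opposite strand, and since no source used here states whether reads were counted by strand, part of its low signal is uncertain.

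Col4a5, which also joins the network just named, and Col4a6 make the alpha 5-6 network. Col4a5 stood at 45.8, 96.2 and 106 CPM in wild type, 91.0, 96.8 and 180 in hyperplasia and 148, 30.2 and 196 in tumours (0.60, SE 0.61). Col4a6 stood at 9.996, 26.4 and 36.7, then 25.5, 29.8 and 46.9, and then 55.0, 5.46 and 43.0 CPM (0.51, SE 0.72). Tumour libraries 1 and 3 were above all 3 wild-type ovaries for both genes, and tumour library 2 was below all 3. The edgeR QL, BH adjusted p-values of Col4a3, Col4a4, Col4a5 and Col4a6 lay between 0.578 and 0.797.

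Col4a1 and Col4a2 therefore varied over libraries differently from the other type IV chains. In tumour library 2 both genes stood highest among tumours, while the other type IV chains stood lowest. The ratio of Col4a1 to Col4a5 TPM lay between 4.26 and 23.4 in 8 libraries and at 47.8 in tumour library 2. Within the pairs, Col4a4 over Col4a3 ran from 2.01 to 6.48 and Col4a5 over Col4a6 from 2.99 to 7.96, with the highest value of each in wild-type library 1. Type IV chains held 39.6% of the family's TPM in tumour library 2, mainly from Col4a1 and Col4a2, and 15.7% to 25.1% in the other 8 libraries.

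**Figure D4:**
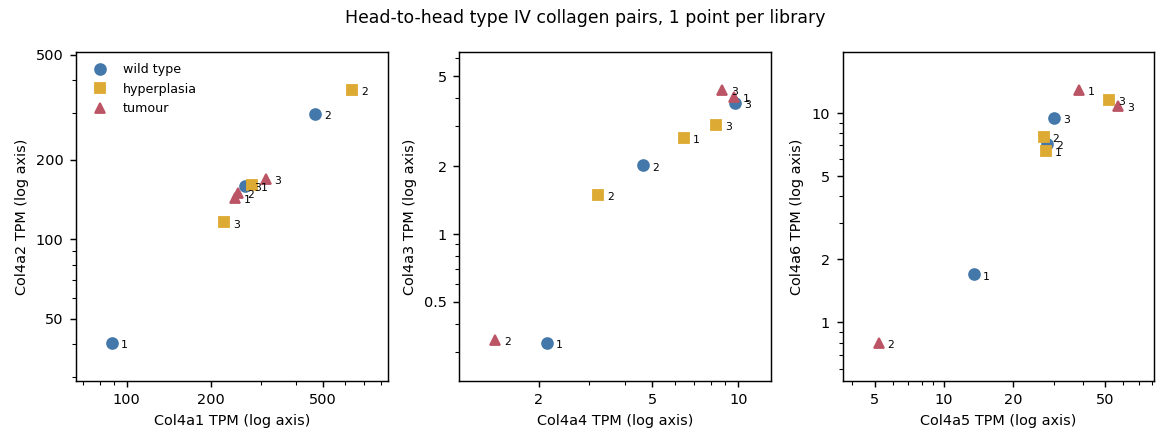
TPM of the 2 genes of each head-to-head type IV pair plotted against each other on log axes, 1 point per library with its replicate number. Points of Col4a1 and Col4a2 keep a ratio of 1.57 to 2.19, while Col4a4 over Col4a3 ranges from 2.01 to 6.48.

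The multiplexins Col15a1 and Col18a1, proteoglycans of the basement membrane zone whose ends can be cut off as endostatin-type fragments, were the other 2 basement membrane members. Col15a1 stood at 31.0, 340 and 185 CPM in wild type, 63.9, 190 and 66.0 in hyperplasia and 18.9, 80.8 and 43.7 in tumours (−1.96, SE 0.84, edgeR QL, BH adjusted p = 0.234). It was the only basement membrane member with a fitted value below 0. Col18a1 stood at 63.0 to 221 CPM in wild type, 142 to 396 in hyperplasia and 69.2 to 206 in tumours (0.05, SE 0.58). Of the 8 members of the class, 0 passed in any of the 3 comparisons by edgeR QL, by DESeq2 or by limma-voom. In tumours against wild type 1 was at an unadjusted p under 0.05 (edgeR QL), where all genes gave 20.1%.

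Type VI microfilaments are built from Col6a1, Col6a2 and one further chain, which can be Col6a3 or one of the related chains Col6a4, Col6a5 and Col6a6. The genes of these last 3 lie side by side on the minus strand of chromosome 9, with gaps of 27.9 and 28.8 kb. Windows for Col6a5 (chr9:105960594-105960893) and Col6a6 (chr9:105828036-105828335), both minus strand and GRCm38.p6, are shown because they belong to the collagen that fell and to its neighbour with the next lowest value. Capitals mark GC box matches, and neither window held the CCAAT box.
Col6a5: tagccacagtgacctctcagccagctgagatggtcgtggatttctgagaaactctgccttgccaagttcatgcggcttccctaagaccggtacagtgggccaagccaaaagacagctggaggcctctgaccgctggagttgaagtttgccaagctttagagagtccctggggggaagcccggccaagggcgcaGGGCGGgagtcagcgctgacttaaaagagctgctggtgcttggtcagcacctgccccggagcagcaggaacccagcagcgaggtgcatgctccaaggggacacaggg
Col6a6: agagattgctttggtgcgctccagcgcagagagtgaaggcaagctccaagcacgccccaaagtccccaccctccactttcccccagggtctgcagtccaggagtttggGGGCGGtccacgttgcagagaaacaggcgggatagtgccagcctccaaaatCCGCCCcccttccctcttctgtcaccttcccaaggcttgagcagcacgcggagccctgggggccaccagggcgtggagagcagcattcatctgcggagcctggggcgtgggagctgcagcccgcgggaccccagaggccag

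Col6a5 (ENSMUSG00000091345, 105856078 to 105960643) stood at 21.04, 32.7 and 136 CPM in wild type, 15.1, 10.9 and 29.5 in hyperplasia and 2.25, 1.37 and 2.69 in tumours. The 3 tumours lay close together and below every other library, while wild-type library 3 was far above the other wild types. The tumour-to-wild-type log2 fold change was −4.90 (SE 0.79, n = 3 per group, edgeR QL, BH adjusted p = 0.0356). Over 15 alternatives it ran from −5.32 to −2.36 with adjusted p from 9.90e-10 to 0.124, and it passed in 5. Leaving out any of the 6 wild-type and tumour libraries ended the call. Without wild-type library 3 the value was −3.67, and without both libraries that stood apart the value was −5.13 (edgeR QL, BH adjusted p = 0.0638). Tumours stood at −3.13 against hyperplasia (SE 0.74, edgeR QL, BH adjusted p = 0.128). The luteal, oocyte, macrophage, smooth muscle, pericyte, adipocyte and oviduct marker sums, given above, were also lower in all 3 tumours than in all 3 wild-type ovaries, and their part in this result was not tested.

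Col6a6 (ENSMUSG00000043719, 105687809 to 105828160) stood at 41.4, 21.3 and 30.0 CPM in wild type, 45.6, 20.6 and 13.0 in hyperplasia and 7.81, 1.17 and 4.28 in tumours. Every tumour lay below the other 6 libraries, but with −2.79 on the log2 scale (SE 0.68) the gene missed the threshold (adjusted p = 0.0702, edgeR QL, BH). It passed in 2 of 15 alternatives, with DESeq2 (−2.79, adjusted p = 9.38e-04) and without the low-count filter. Over the 15 its value ran from −3.48 to −1.85, and adjusted p reached 0.167 (edgeR QL, BH, with the stem term). Without both libraries that stood apart the value was −2.10 (edgeR QL, BH adjusted p = 0.124). Their neighbour Col6a4 stood at 143, 109 and 287 CPM in wild type, 466, 171 and 325 in hyperplasia and 296, 203 and 331 in tumours, which overlapped (0.62, SE 0.45, edgeR QL, BH adjusted p = 0.481). The ratio of Col6a4 to Col6a5 TPM was 25.0, 4.76 and 2.60 in wild type, 32.8, 16.5 and 15.004 in hyperplasia and 114, 117 and 50.5 in tumours. In CPM the same ratio was 6.79, 3.34 and 2.10 in wild type, so the value of wild-type library 1 depended on the length scaling, and the tumours were above all wild types on both scales. As related genes, the 3 could exchange ambiguous reads in the counting.

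The major type VI chains differed little relative to their spread. Col6a1 stood at 360, 562 and 733 CPM in wild type, 706, 737 and 812 in hyperplasia and 1105, 547 and 717 in tumours (0.52, SE 0.34). Col6a2 stood at 197, 351 and 520, then 395, 436 and 645, and then 1011, 169 and 431 CPM (0.59, SE 0.59), and without tumour library 1 its value was −0.24. Col6a3 had a log2 fold change of −0.74 (SE 0.58). None of the 3 passed, with edgeR QL, BH adjusted p from 0.446 to 0.626.

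**Figure D5:**
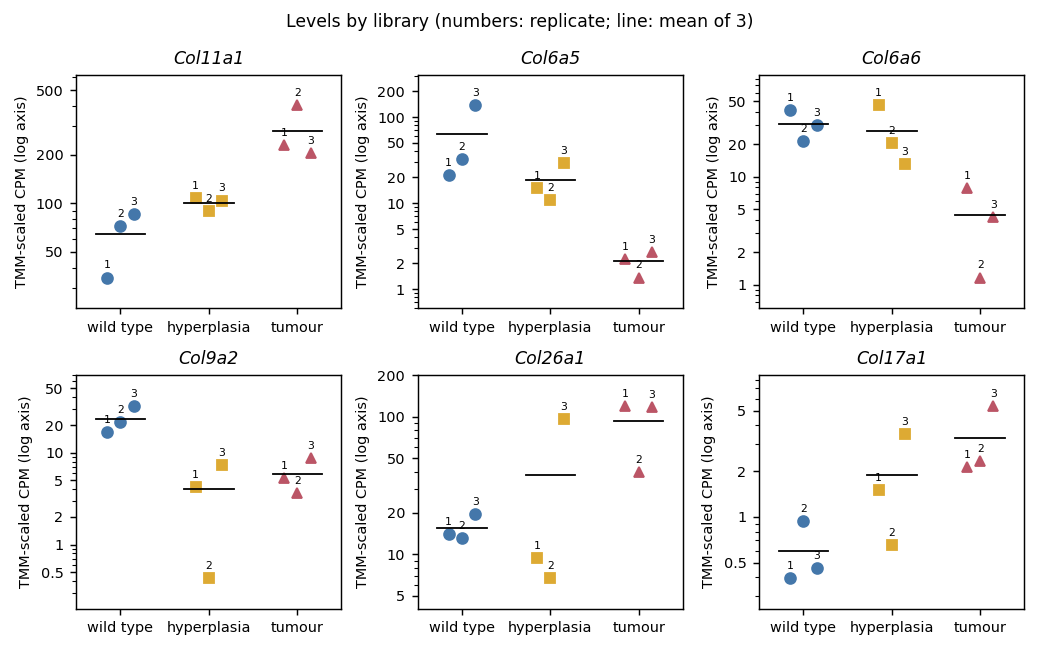
TMM-scaled CPM of 6 collagens in each library on log axes, with replicate numbers and a line at the mean of 3. Tumours lie above wild type for Col11a1, Col26a1 and Col17a1 and below it for Col6a5, Col6a6 and Col9a2, and only Col11a1 (adjusted p = 0.0404) and Col6a5 (0.0356) passed the threshold (edgeR QL, BH).

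Outside these assemblies, the largest positive fitted value of the family belonged to Col26a1, a secreted collagen first described in testis and ovary. It stood at 14.1, 13.1 and 19.7 CPM in wild type, 9.37, 6.74 and 96.9 in hyperplasia and 120, 39.7 and 118 in tumours (tumour-to-wild-type 2.57, SE 0.94, edgeR QL, BH adjusted p = 0.174). Hyperplasia library 3, whose title stem is that of tumour library 3, lay within the tumour range, and the other 2 hyperplasia libraries lay below wild type. Without hyperplasia library 3 the hyperplasia-to-wild-type value turned from 1.27 to −0.95, and with a model term for the shared stem it was −0.40. Without hyperplasia library 3, tumours against hyperplasia stood at 3.52 and passed (edgeR QL, BH adjusted p = 0.0431, against 0.555 with all libraries). With the stem term that comparison stood at 2.36 and did not pass (adjusted p = 0.237, edgeR QL, BH).

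Col17a1, the transmembrane collagen of hemidesmosomes, which anchor epithelial cells, was low throughout. It stood at 0.398, 0.942 and 0.460 CPM in wild type, 1.499, 0.652 and 3.50 in hyperplasia and 2.12, 2.34 and 5.38 in tumours (2.44, SE 0.72, edgeR QL, BH adjusted p = 0.110). In CPM tumours and wild types did not overlap. In TPM they did, at 0.60, 0.42 and 2.55 in tumours and 0.08, 0.55 and 0.34 in wild type. The 6 surface epithelium markers summed to 1.37 CPM in tumour library 2, and their part in this result was not tested. DESeq2 called Col17a1 (2.46, adjusted p = 0.0149), and the range of adjusted p over 15 alternatives was 0.0149 to 0.473. The other transmembrane members, Col13a1, Col23a1 and Col25a1, had tumour-to-wild-type values from −0.54 to 0.28 and overlapped. Col25a1, a neuronal and muscle collagen, stood at 0.746, 2.53 and 1.90 CPM in wild type and at 3.48, 3.77 and 4.27 in hyperplasia, with no overlap (1.15, SE 0.70), and at 1.06, 0.780 and 4.45 in tumours.

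Of 9 FACIT members 6 were tested and 0 passed by edgeR QL, DESeq2 or limma-voom. In tumours against wild type 1 was at an unadjusted p under 0.05 (edgeR QL), where all genes gave 20.1%. Col9a2, a type IX chain best known from cartilage, stood at 16.7, 21.4 and 32.4 CPM in wild type, 4.23, 0.435 and 7.29 in hyperplasia and 5.30, 3.61 and 8.65 in tumours. Both lesion groups lay wholly below wild type, at −2.55 (SE 0.78, edgeR QL, BH adjusted p = 0.999) in hyperplasia and −2.002 (SE 0.76, edgeR QL, BH adjusted p = 0.189) in tumours, with the same wild-type libraries in both comparisons. Its type IX partners were scarcely detected, Col9a1 with 5 counts and Col9a3 with 79 over all 9 libraries. Col14a1, which binds fibril surfaces, stood at 6.47, 16.3 and 8.51 CPM in wild type, 12.3, 12.5 and 4.74 in hyperplasia and 1.72, 4.88 and 6.30 in tumours (−1.28, SE 0.59, edgeR QL, BH adjusted p = 0.264), without overlap between tumours and wild type. Col12a1, found on fibrils under tension, differed widely between libraries of a group, at 384, 22.3 and 284 CPM in tumours and 21.6, 176 and 113 CPM in wild type (1.15, SE 0.93). Col16a1, Col20a1 and Col22a1 had values from −0.40 to 0.03.

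Among the remaining members, the network collagens Col8a1 and Col8a2, which form the hexagonal lattice of some basement membranes, had values of 0.77 and −0.76. Col8a1 stood at 6.91, 12.2 and 12.5 CPM in hyperplasia and at 13.0, 23.9 and 17.1 CPM in tumours, just without overlap (0.77, SE 0.41, edgeR QL, BH adjusted p = 0.432). Col7a1, the anchoring fibril chain that holds epithelium to the dermis, stood at 1.19, 5.65 and 9.94 CPM in wild type, 2.46, 5.65 and 1.44 in hyperplasia and 2.52, 1.17 and 1.09 in tumours (−1.80, SE 0.80, edgeR QL, BH adjusted p = 0.249). Col28a1, a collagen of peripheral nerve, stayed at 1.95 CPM or less in every library (0.13, SE 0.77).

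A further 5 members did not pass the filter on low counts and were not tested. They were the cartilage chain Col2a1 with 4 counts over all libraries, the hypertrophic cartilage chain Col10a1 with 40, and the FACIT members Col9a1 with 5, Col9a3 with 79 and Col19a1 with 9. In single libraries 3 counts, the floor used here, correspond to 0.144 to 0.257 CPM before TMM scaling. Lower levels rest on fewer counts and are imprecise at this depth. Col2a1, whose type II chain shares cartilage fibrils with Col11a1, had 0 counts in the 3 tumours.

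In hyperplasia compared with wild type, 0 of 39 collagens passed by edgeR QL, by DESeq2 or by limma-voom, as did 0% of all genes by edgeR QL. At an unadjusted p under 0.05 there were 3 collagens (edgeR QL), where all genes gave 3.53%. Fitted values were above 0 for 26 members and below 0 for 13, with a median log2 fold change of 0.19, against −0.00 over all genes, of which 49.7% were above and 50.3% below 0. Class medians were 0.15 for fibrillar, 0.46 for basement membrane and 0.14 for other members, and without both libraries that stood apart they were −0.16, 0.08 and 0.04. Leaving out wild-type library 1 alone gave the same rounded values, and with single libraries left out they ran from −0.26 to 0.53, 0.08 to 0.67 and 0.04 to 0.38. The median of all 39 was −0.05 without both libraries and ran from −0.04 to 0.46 with single libraries left out. The groups did not overlap for Col11a1, Col11a2 and Col25a1 (higher) and Col9a2 (lower), 4 of 39 members, near the 9.81% of all genes (4.63% higher, 5.18% lower). Smooth muscle markers were higher in all 3 hyperplasia libraries than in all 3 wild types (ranges above), and their part in these values was not tested.

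In tumours compared with hyperplasia, 0 of 39 collagens passed by edgeR QL and by limma-voom, where edgeR QL called 0.185% of all genes (0% higher, 0.185% lower). DESeq2 called 3, Col11a1, Col6a5 and Col6a6, but its share over all genes is not given here, so this count has no background beside it. At an unadjusted p under 0.05 there were also 3 by edgeR QL, where all genes gave 14.1%. Fitted values were above 0 for 14 members and below 0 for 25, where 54.0% of all genes were above and 46.0% below 0, and the median was −0.36, against 0.05. The collagen median was −0.10 without tumour library 2 and −0.12 without both libraries that stood apart. The fibrillar median was −0.65, with 8 of 10 below 0, but −0.29 without tumour library 2, −1.12 without tumour library 3 and −0.31 without both libraries that stood apart. The medians of −0.05 for basement membrane and −0.26 for other members were 0.03 and −0.09 without both. Groups did not overlap for 4 of 39 members (Col11a1 and Col8a1 higher, Col6a5 and Col6a6 lower), where 21.9% of all genes did not overlap (9.54% higher, 12.4% lower). Each group serves in 2 of the 3 comparisons, so the 3 sets of values are not independent.

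Genes whose proteins fold, process, bind or sense collagen were read from 5 lists. Of 21 genes for chain folding and modification, 0 passed in tumours against wild type (edgeR QL, BH; 5 at an unadjusted p under 0.05), with 17 above 0 and a median log2 fold change of 0.54. Over all genes 20.1% were at an unadjusted p under 0.05, 1.60% were called, 50.9% were above 0 and the median was 0.01, so the 5 of 21 genes lay near that background. Among them Fkbp10, a proline isomerase of the endoplasmic reticulum, stood at 115 CPM in wild type and 260 in tumours (1.17, SE 0.38), and Plod3, a lysyl hydroxylase, at 87.6 and 159 CPM (0.86, SE 0.28), both with edgeR QL, BH adjusted p = 0.135. Tmem38b, an ion channel of the endoplasmic reticulum, stood at −0.98 (edgeR QL, BH adjusted p = 0.0905). Of 14 genes for propeptide cleavage and cross-linking, 0 passed (edgeR QL, BH; 5 at an unadjusted p under 0.05, where all genes gave 20.1%), with a median of −0.77, against 0.01. Pcolce2, which enhances removal of the carboxy-terminal propeptide, had 0.870 ± 0.292 CPM (SD, n = 3) in wild type and 0 counts in the 3 tumours (edgeR QL, BH adjusted p = 0.0518). Tll1, a protease that removes this propeptide, stood at 2.22 and 0.171 CPM (−3.57, SE 0.85, edgeR QL, BH adjusted p = 0.0690). Adamts2, which removes the amino-terminal propeptide of fibrillar chains, stood at 203 ± 46.5 CPM (SD, n = 3) in wild type and 485 ± 234 in tumours, without overlap (1.25, SE 0.37, edgeR QL, BH adjusted p = 0.109).

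For the last 3 lists the background in tumours against wild type was 1.60% of all genes called (0.352% higher, 1.25% lower) and 20.1% at an unadjusted p under 0.05 (edgeR QL). At that unadjusted level were 4 of 12 fibril-binding genes, 2 of 9 receptors and 5 of 15 other basement membrane genes tested. Among fibril-binding proteoglycans and regulators 12 of 13 were tested, and 1 fell. This was Thbs2, a thrombospondin whose loss is known to disturb fibril shape, at 21.6, 47.6 and 43.2 CPM in wild type, 34.2, 48.8 and 13.8 in hyperplasia and 4.90, 7.12 and 6.64 in tumours (−2.59, SE 0.49, edgeR QL, BH adjusted p = 0.0449). Of 10 collagen receptors 9 were tested and 1 fell, Lair1, an inhibitory collagen receptor of immune cells, at 4.87, 7.42 and 7.19 CPM in wild type and 1.92, 1.46 and 1.26 in tumours (−2.06, SE 0.36, edgeR QL, BH adjusted p = 0.0403). Macrophage marker sums were also lower in every tumour than in every wild type, and their part in this result was not tested. Of 15 other basement membrane proteins 1 rose, Lamc3, a laminin gamma chain, at 23.5, 25.1 and 39.7 CPM in wild type, 50.006, 33.3 and 120 in hyperplasia and 317, 223 and 187 in tumours (3.04, SE 0.49, edgeR QL, BH adjusted p = 0.0356). The median of that list was 0.45, beside 0.28 for the basement membrane collagens. In both other comparisons 0 genes of any of the 5 lists passed (edgeR QL, BH).

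Promoter windows were available from RefSeq for 35 of the 44 members, as 38 windows of 300 bases. Motifs were searched as exact letters on both strands. The GC box GGGCGG was in 23 of 38 collagen windows (60.5%) and in 35.7% of all 32851 windows, the CCAAT box CCAAT in 13 (34.2%) and 37.4%, and the TATA box core TATAAA in 5 (13.2%) and 13.6%. The forkhead core GTAAACA was in 1 collagen window, that of Col6a1, and in 3.65% of all windows. The 5 windows printed above had 60% to 74% GC, against a median of 52.7% over all windows. Most of the 38 collagen windows also lay above that median, and the motif shares were not matched for GC. The windows of Col4a1 and Col4a2 share a GC box match, which is counted in both. A match describes the letters of the window and was not tested against expression.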

How the data were processed

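The labels describe Trizol extraction of dissected ovaries and a stranded TruSeq mRNA kit. RSEM 1.3.1, STAR 2.7.1a, Picard 2.8.1, FastQC and the build GRCm38 are listed in the submitters' processing notes without roles, and the annotation release and strand setting stand in no source used here. Per the file headers, the authors deposited for each library expected counts (not normalised), TPM (scaled for length and depth) and FPKM (left out here). Of the expected counts above 0, 25.6% were not whole, because RSEM shares ambiguous reads, which can blur related genes.

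Expected counts were rounded. Totals ran from 11661820 to 20890487 per library, mitochondrial genes took 2.54% to 4.18%, and no pair of libraries agreed within sampling noise (smallest chi-square per degree of freedom 25.0 over 36 pairs). All identifiers were matched to GENCODE M21, a release inferred from them. Main results come from edgeR 4.0.16 under R 4.3.3 with TMM scaling (factors 0.797 to 1.078), filterByExpr (count minimum 10, total minimum 15, 16213 genes kept), 1 quasi-likelihood fit over 9 libraries and 3 contrasts, and Benjamini-Hochberg adjustment over all tested genes at 0.05. The common biological coefficient of variation was 0.432 with 6 residual degrees of freedom. The edgeR step was tested on counts simulated from its own fitted spread, without libraries that stand apart or a relation to gene length. That test does not bear on how the calls depend on single libraries. CPM compares libraries, and deposited TPM compares genes. Alternatives used DESeq2 1.42.0 (size factors; Wald test), library totals, limma 3.58.1 (voom; log2(TPM + 1)), no filter, 2-group fits, a term for the shared title stem and each library left out. Leaving out both libraries that stand apart was chosen after seeing the data.

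The members, classes and lists were chosen with earlier results of these data known. Any member may be named. Values per library are given for members called in any comparison, the 8 with the highest mean TPM, the type IV chains, and the 3 highest and 3 lowest fold changes of each comparison among those with a mean of at least 1 CPM. From each partner list, called genes are named, else up to 3 with the smallest adjusted p. Col12a1, Col14a1, Col15a1 and Col8a1 were given per library after their values were seen. Groups follow the labels. Motifs and promoter windows come from RefSeq (GRCm38.p6). Floors cover counting error only.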

Additional observations from a re-analysis of the deposited data

How the results depend on the processing

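No paired analysis was possible because the labels give no replicate numbers that pair samples across groups. The term for the shared title stem links 1 hyperplasia and 1 tumour library only. For tumours against wild type the count of collagens called was 2 with edgeR QL. It was 2 with DESeq2 size factors and with library totals, 3 without the low-count filter, 2 (Col26a1 and Col6a5) in the fit of both groups alone, 4 with the DESeq2 Wald test, 1 with limma-voom and 1 with limma on log2(TPM + 1). It was 0 with the term for the shared title stem (6 at an unadjusted p under 0.05), 0 without both libraries that stand apart (8), and ranged from 0 to 0 with each of the 6 libraries left out in turn (5 to 11 at an unadjusted p under 0.05), where fewer libraries were fitted. For tumours against hyperplasia the count was 0 with edgeR QL, 3 with the DESeq2 Wald test, 1 without the filter (Col6a5) and 0 to 1 with single libraries left out (1, Col26a1, without hyperplasia library 3). For hyperplasia against wild type it was 0 in every setting run, with 1 to 4 collagens at an unadjusted p under 0.05. Shares over all genes are given for the main edgeR QL fit only, so counts from the alternatives have no background beside them. Directions turned for Col6a2 in tumours against wild type without tumour replicate 1 (−0.24, from 0.59, with up to 1.02 without tumour replicate 2) and for Col26a1 in hyperplasia against wild type with the stem term (−0.40) and without hyperplasia replicate 3 (−0.95, from 1.27, with up to 1.77 without hyperplasia replicate 2), and the cause was not tested. A further 73 sign changes over 63 gene and comparison pairs concerned values that were not called and lay within 1 SE of 0. Library totals alone moved the median of all genes by −0.14 in both tumour comparisons, and limma on log2(TPM + 1) by −0.13, 0.14 and −0.28 in tumours against wild type, hyperplasia against wild type and tumours against hyperplasia. With library totals the median of all tested collagens in tumours against wild type was −0.11 and that of type IV chains 0.33. With 3 libraries a group and a low total of 11661820 counts, members near the floor of 3 counts are not resolved.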
